A study of Sus scrofa with 4 samples.

Results

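The nuclear-encoded genes of the mitochondrial respiratory chain and of ATP synthase were examined in porcine (Sus scrofa) blastocysts. Members were chosen by gene symbol, as all named probes whose symbol begins with NDUF, UQCR, COX4 to COX8 or ATP5, or is SDHA to SDHD, CYC1 or CYCS. Earlier results of these data were known when this choice was made. The rule found 62 probes for 43 genes, of 13146 named probes for 10024 genes on the array. Complex I held 25 of these genes, complex III held 1, complex IV held 4 and complex V, the ATP synthase, held 8. A further 5 genes were assembly factors or other proteins that are not subunits. Complex II, cytochrome c and cytochrome c1 had 0 named probes, so they are not analysed here, and complex III is represented by UQCRB alone.

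The embryos grew either from oocytes that had met high non-esterified fatty acids (NEFAs, which fat tissue releases into blood) or from control oocytes. Each of 4 2-colour oligonucleotide arrays set RNA of a NEFA pool against RNA of a control pool, with NEFA in Cy3 on arrays 1 and 2 and in Cy5 on arrays 3 and 4. By the design text, pools numbered 4, a pool was 10 blastocysts, and collection fell on days 7 and 8; it leaves unstated whether the pool number is per condition and whether days were mixed in a pool. The labels give no fatty acid, dose, breed or culture condition, and do not say whether the pools came from separate cultures. P-values therefore measure only the spread between these arrays, and the small number of arrays limits the precision. RNA was amplified from pools of whole embryos, so fewer cells of a type and less RNA per cell cannot be told apart.

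Complex I takes electrons from NADH and complex II takes them from succinate. Both pass them through ubiquinone to complex III, and cytochrome c carries them on to complex IV, which reduces oxygen. Complexes I, III and IV pump protons across the inner mitochondrial membrane, and complex V uses the return flow to make ATP. Most subunits are encoded in the nucleus and imported, while a few core subunits come from the mitochondrial genome, which had 0 named probes here. Oxidative phosphorylation is known to increase in mammalian embryos around blastocyst formation, when the sodium pump that fills the cavity adds to the demand for ATP.

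Over the whole array, between 38.2% and 48.9% of probes in a pool gave a signal above background. Background was set per array and channel at the mean plus 2 SD of 153 negative control spots. Testing required a signal over that limit in 3 or more of a condition's 4 pools, which left 17127 probes. Ratios are log2 values of NEFA over control. Over these probes, the ratios of arrays 1 and 2, which share a labelled orientation, correlated at -0.24, those of arrays 3 and 4 at 0.16, and those of arrays 2 and 4 at -0.54. The last pair correlated at 0.54 as Cy5 over Cy3, before turning by the labels, and arrays 1 and 3 at -0.29 when turned and 0.29 before. The arrays thus did not share a common direction of difference. Each ratio takes its sign from the labelled dyes, whose correctness was not tested; were an array labelled the wrong way round, its ratios would change sign. Of the blastocyst's own markers, 7 of 9 trophectoderm genes with a named probe were measured, GATA3 and TFAP2C among them. KRT19 and HAND1 were not above background. SOX2 and KLF4, the inner cell mass markers with a named probe, were not above background, and POU5F1 and NANOG had no probe under these symbols among those used. For primitive endoderm 4 of 4 markers with a probe were measured. Of cells that a pool could also hold, 4 of 9 oocyte, 2 of 5 cumulus and granulosa and 1 of 4 sperm markers with a probe were measured. The summed signal of the 4 measured oocyte markers (GDF9, ZP2, ZP3 and ZP4) ran from 1394 to 1924 in NEFA pools. In control pools it ran from 1399 to 1786. The summed signal of AMH and FST, the 2 measured cumulus and granulosa markers, varied more. It ran from 4213 to 12722 in NEFA pools and from 5397 to 9747 in control pools. INHBA, HAS2 and PTX3 of the same list were not above background. The sperm marker, ODF2, ran from 227 to 273 in NEFA pools and from 226 to 328 in control pools. It read near the background limits, which ran from 200.9 to 369.1 over arrays and channels. TNP1, AKAP4 and SPA17 were not above background. Whether oocyte, cumulus, granulosa or sperm cells were present was not tested.

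Transcripts of the respiratory chain and ATP synthase were detected throughout. Of the 62 probes, 58 (93.5%) were above background by the testing rule, against 43.3% of all named probes. In all 8 channels 55 probes (88.7%) were above background, against 28.4% of all named probes. These 55 probes covered 42 of the 43 genes, so each of those genes was detected in all 4 NEFA and all 4 control pools. None of the 42 genes was tested only through the condition in which it was brighter.

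The gene without a tested probe was NDUFA4L2, a paralogue of NDUFA4 known in human cells to be induced by hypoxia. Its probe passed the background limit in 2 NEFA pools and 1 control pool. NDUFA4, long listed with complex I and now assigned to complex IV, passed it in all 8. The other 3 probes below the limit belonged to genes that other probes measured, 2 of them to ATP5SL and 1 to NDUFB7.

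Most of these probes were among the brightest on the array. Each gene was represented by its brightest tested probe, on the scale of mean log2 intensity over the 8 channels. Over the 42 genes the median was 13.23, against 9.19 over 4644 other named genes represented the same way. Of the 42 genes, 27 (64.3%) lay in the brightest 10% of tested probes, against 11.5% of the other named genes. With all tested probes of the members taken singly, the median stood at percentile 89.8 of tested probes. Probes of a single gene differed widely in brightness, those of UQCRB reading 15.69 and 10.10. Brightness is therefore given as a description of the probes and not as an order of transcript levels.

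Among complexes with several genes measured, complex V was the brightest. Its 8 genes ran from 13.94 for ATP5D, of the central stalk, to 15.86 for ATP5G3, which encodes the c subunit of the membrane ring, and 8 of 8 were in the brightest 10% of tested probes. The catalytic head subunits ATP5A1 (alpha) and ATP5B (beta) read 15.67 and 15.45. ATP5G1, a second gene for the same c subunit, read 15.68. The ATP5G3 probe was saturated in 1 of its 8 channels, the 1 saturated reading among all members, and readings this near the scanner's upper limit leave little room for a higher value.

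The 25 genes of complex I had a median brightness of 13.13. The brightest were NDUFB2 at 15.05 and NDUFB5 at 15.04, both accessory subunits of the membrane arm, and the dimmest was NDUFB7 at 9.11. Of the 25, 17 were in the brightest 10%. The peripheral arm, which holds the NADH-binding and iron-sulphur subunits, had 9 genes with a median of 12.93. The membrane arm had 15 genes with a median of 13.22, and the remaining gene, NDUFAB1, was counted in neither arm. UQCRB, a small subunit near the ubiquinone site of complex III, read 15.69. In complex IV, cytochrome c oxidase, COX6C read 14.91, NDUFA4 read 12.41 and COX7C read 12.11.

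The 5 assembly factors and other genes were dimmer, from 8.54 for NDUFAF1 to 11.58 for ATP5S, and 0 of 5 were in the brightest 10%. NDUFAF1, NDUFAF3 and NDUFAF4 help to build complex I without staying in it. ATP5S and ATP5SL carry ATP synthase names but are not core subunits, and the human homologue of ATP5SL is known as an assembly factor of complex I. Taking all tested probes rather than the brightest of each gene, complex V ran from 10.93 to 15.86 and these genes from 8.25 to 11.58, so the 2 ranges then overlapped.

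**Figure D1:**
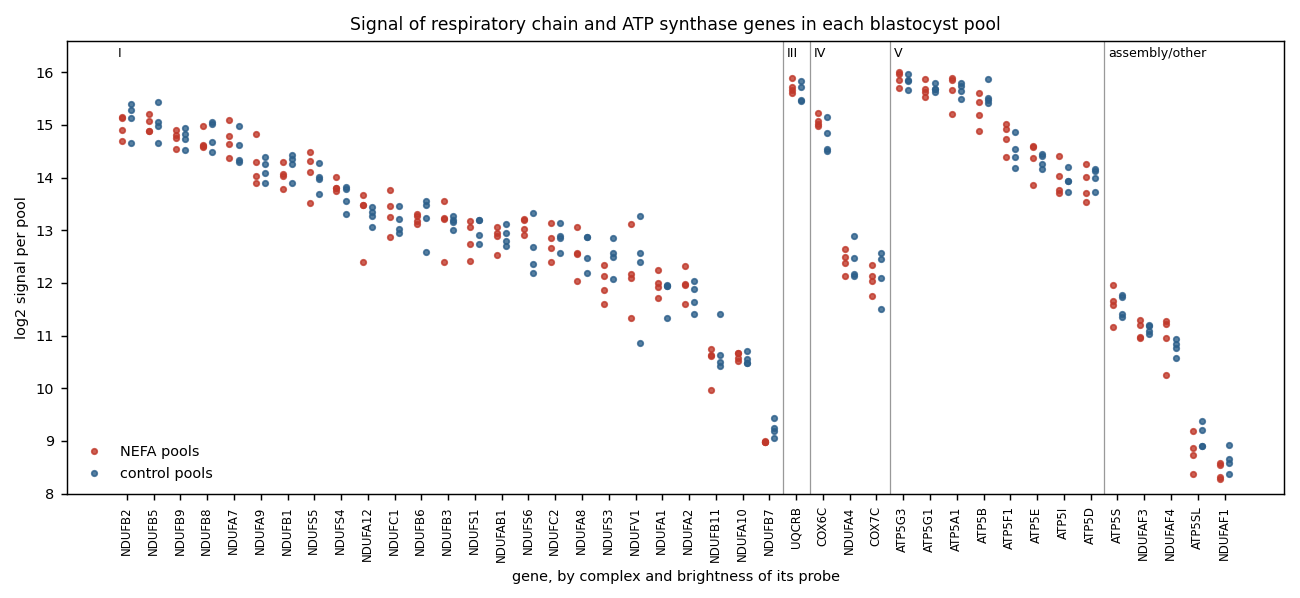
Log2 signal of the probe that represents each of the 42 measured genes, in each of the 4 NEFA pools (red) and 4 control pools (blue), by complex and by brightness of the probe. Signals were normalised by loess within arrays and by Aquantile between arrays; NEFA and control pools overlap for each gene except NDUFB7.

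None of the 42 measured genes differed detectably between NEFA and control pools, and the parts of the chain without a named probe remain unknown. In the limma fit with a dye term, 0 of 42 genes passed at an adjusted p of 0.05, and 0 of all 17127 probes tested did so (0%). At an unadjusted p under 0.05 there were 0 of 42 genes, against 1.54% of all tested probes. The smallest unadjusted p was 0.0657, and each gene's adjusted p was 1.00 after rounding. The mean ratio was above 0 for 18 genes and below 0 for 24, or 42.9% above 0, against 48.4% of all tested probes.

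The intervals of the fit describe its precision for each gene, taking the dyes as labelled, which was not tested. They are not adjusted for the number of genes, so they set no firm bound on a difference that went unseen. The widest mean ratios were 0.45 for NDUFS6 and -0.51 for NDUFS3, a factor of 1.42, and 31 of 42 genes lay within 0.20 of 0. The 95% interval of a gene reached 0.41 to either side at the median, a factor of 1.33, and ran from 0.33 to 0.61. For 41 of 42 genes the whole interval lay within a 2-fold difference in either direction, NDUFS3 being the exception, and for 26 it lay within 1.5-fold. The spread of single arrays was larger than the means, with a median SD over the 4 arrays of 0.39 for the members and 0.35 for all tested probes.

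**Figure D2:**
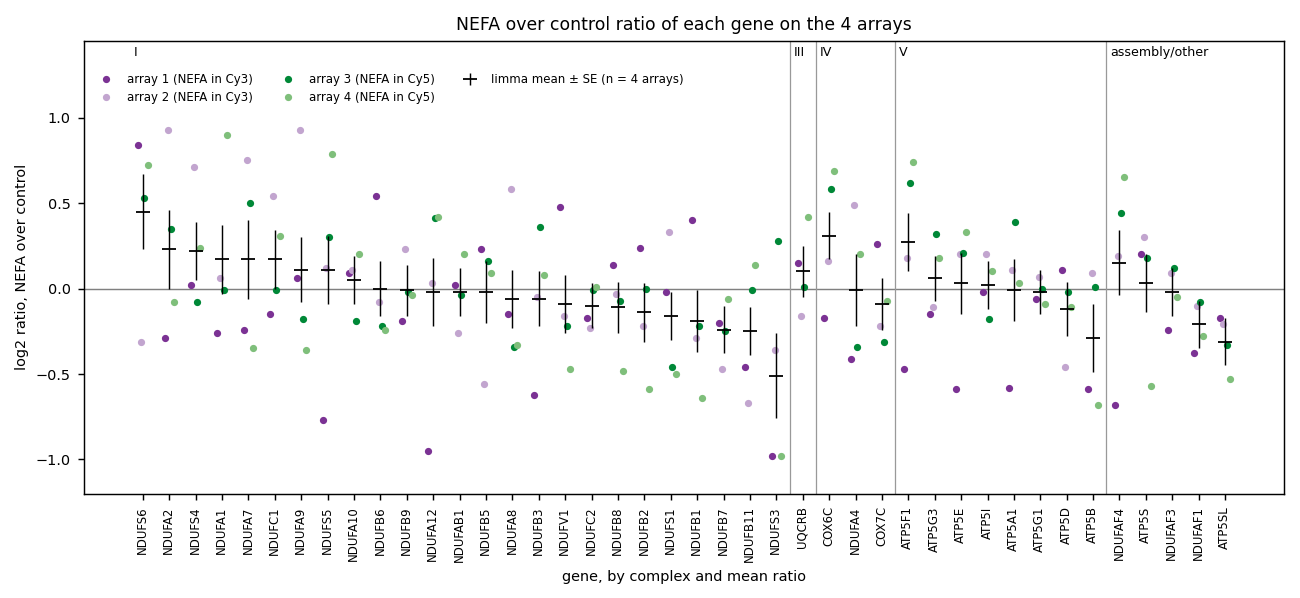
Log2 ratio of NEFA over control for each of the 42 measured genes on each of the 4 arrays (coloured points), with the limma mean ± SE (black), by complex and mean ratio. Points of a gene lie on both sides of 0 except for NDUFB7, NDUFAF1 and ATP5SL, which lie below it on 4 of 4 arrays.

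In complex I, 10 genes had means above and 15 below 0. NDUFS3, a core subunit of the peripheral arm close to the ubiquinone site, had signals of 11.60, 12.14, 12.35 and 11.87 in the NEFA pools of arrays 1 to 4, against 12.57, 12.50, 12.07 and 12.85 in the control pools. The NEFA pool was lower on 3 arrays and higher on array 3, and the groups overlapped. The limma ratio was -0.51 ± 0.25 (SE, n = 4 arrays), and without 1 array it ran from -0.82 (without array 3) to -0.19 (without array 4). A second probe of the gene gave -0.20 ± 0.22.

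NDUFS6, a zinc-binding accessory subunit of the peripheral arm, had signals of 13.20, 13.02, 13.22 and 12.91 in the NEFA pools, against 12.36, 13.33, 12.69 and 12.19 in the control pools. The NEFA pool was higher on 3 arrays and lower on array 2. The control pools spread widely (12.64 ± 0.51, SD, n = 4) beside the NEFA pools (13.09 ± 0.15). The limma ratio was 0.45 ± 0.22, and it was 0.16 without array 1 and 0.73 without array 2.

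Among other subunits of the peripheral arm, NDUFS4 stood at 0.22 ± 0.17, with 0.05 without array 2 and 0.40 without array 1. NDUFA2 stood at 0.23 ± 0.23, with -0.08 without array 2. NDUFV1, which binds NADH, stood at -0.09 ± 0.17, and NDUFS1, the largest iron-sulphur subunit, at -0.16 ± 0.14. NDUFV1 had its lowest signals in both pools of array 1, 11.33 in NEFA and 10.86 in control, and its highest in both pools of array 2, 13.12 in NEFA and 13.28 in control. That shift was between arrays and not between conditions. NDUFA12 was at -0.95 on array 1 and at 0.03, 0.41 and 0.42 on arrays 2 to 4, with a mean of -0.02 ± 0.20.

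The 15 membrane-arm genes stayed nearer to 0, from -0.25 for NDUFB11 to 0.17 for NDUFC1, with 5 above and 10 below 0. The bright subunits NDUFB2 and NDUFB5 stood at -0.14 ± 0.17 and -0.02 ± 0.18. NDUFS5 spanned -0.77 on array 1 to 0.79 on array 4 around a mean of 0.11 ± 0.20. NDUFAB1, the mitochondrial acyl carrier protein, was counted in neither arm. It also serves fatty acid and lipoic acid synthesis in the matrix, and it stood at -0.02 ± 0.14 with a range of -0.26 to 0.20 over the arrays.

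NDUFB7, named here after its values were seen, was the 1 member whose pools did not overlap. Its signals were 8.99, 8.98, 8.99 and 9.00 in the NEFA pools, against 9.19, 9.44, 9.25 and 9.06 in the control pools. This is 1 of 42 genes (2.4%), against 1.17% of all tested probes with no overlap in either direction (0.474% higher and 0.697% lower in NEFA). The limma ratio was -0.24 ± 0.14 with an adjusted p of 1.00. The probe was the dimmest of complex I, and a second NDUFB7 probe passed the limit in 0 NEFA pools and 1 control pool.

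The complex III subunit UQCRB had signals of 15.61, 15.67, 15.73 and 15.90 in the NEFA pools, against 15.46, 15.83, 15.73 and 15.48 in the control pools. The groups overlapped, and the limma ratio was 0.10 ± 0.15. Its dim second probe gave 0.15 ± 0.16.

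In complex IV, COX6C had the smallest unadjusted p of the subunits (0.0721 in limma). Its signals were 14.98, 15.01, 15.08 and 15.23 in the NEFA pools, against 15.15, 14.85, 14.50 and 14.54 in the control pools. The NEFA pool was lower on array 1 and higher on the other 3, so the pools overlapped through array 1 alone. The ratio also differed by dye, at -0.17 and 0.16 with NEFA in Cy3 and at 0.58 and 0.69 with NEFA in Cy5. The dye term of the fit (Cy5 over Cy3) was 0.32, about as large as the NEFA ratio. The limma ratio was 0.31 ± 0.14, with 0.23 to 0.40 when 1 array was left out, and its SE was 0.19 without the dye term. NDUFA4 stood at -0.01 ± 0.21 with values from -0.41 on array 1 to 0.49 on array 2, and COX7C at -0.09 ± 0.15.

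In complex V, 4 genes had means above and 4 below 0. ATP5B, the catalytic beta subunit, had signals of 14.89, 15.60, 15.43 and 15.19 in the NEFA pools, against 15.48, 15.52, 15.42 and 15.87 in the control pools. The NEFA pool was clearly lower on arrays 1 and 4 and within 0.09 of the control pool on arrays 2 and 3. The limma ratio was -0.29 ± 0.20, with -0.12 without array 1 or without array 4 and -0.47 without array 3.

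ATP5F1, the b subunit of the peripheral stalk, was on the other side. Its signals were 14.39, 14.73, 15.01 and 14.92 in the NEFA pools, against 14.86, 14.55, 14.40 and 14.18 in the control pools. The NEFA pool was higher on 3 arrays and lower on array 1. The ratio was -0.47 and 0.18 with NEFA in Cy3 and 0.62 and 0.74 with NEFA in Cy5, and the dye term was 0.41. The limma ratio was 0.27 ± 0.17, with an SE of 0.22 without the dye term. That ratio was 0.43 without array 1 and 0.10 without array 2.

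The c-subunit genes ATP5G3 and ATP5G1 stood at 0.06 ± 0.13 and -0.02 ± 0.13. The ATP5G3 probe was saturated in the control channel of array 2, so its ratio there, -0.11, is an upper bound, and its mean and interval rest on that reading as it stands. The ATP5G1 value came from its brightest probe, which read between -0.09 and 0.07 on the 4 arrays. That probe's brightness, 15.68, is near the scanner's upper limit, and whether this narrowed its ratios was not tested. The gene's 2 dimmer probes ranged wider, from -1.07 on array 4 to 0.82 on array 2 for the middle probe, with means of -0.25 ± 0.23 and -0.17 ± 0.19. ATP5A1 and ATP5E stood at -0.01 ± 0.18 and 0.03 ± 0.18, ATP5D at -0.12 ± 0.16, and ATP5I, a membrane subunit at the interface of ATP synthase dimers, at 0.02 ± 0.14.

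The genes of complex V stood low together on array 1. There, 7 of its 8 genes had a lower signal in the NEFA pool, with a median ratio of -0.31, while the medians on arrays 2, 3 and 4 were 0.10, 0.11 and 0.06. The members as a whole also read low on array 1, with 15 of 42 genes above 0 and a median of -0.16. Of all tested probes, 46% were above 0 on that array, with a median of -0.04. ATP5A1, ATP5B and ATP5E were at -0.58, -0.59 and -0.59 on array 1. Over the 4 arrays the median of complex V was -0.01 ± 0.20 (SD, n = 4), and it was 0.09 without array 1.

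The complexes did not separate from each other by their ratio. The median of complex I was -0.15, -0.03, -0.01 and -0.04 on arrays 1 to 4, a mean of -0.06 ± 0.06 (SD, n = 4). The median of the 3 measured complex IV genes was -0.17, 0.16, -0.31 and 0.20, a mean of -0.03 ± 0.25. Over all tested probes the medians lay between -0.04 and 0.01. The difference of complex I minus complex V was 0.16 on array 1 and -0.13, -0.12 and -0.11 on the others, a mean of -0.05 ± 0.14. Complex I minus complex IV averaged -0.03 ± 0.25 and complex IV minus complex V -0.02 ± 0.27. Each of these means is smaller than its SD over the arrays and no test was made of them.

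Within complex I, the peripheral arm spread more between arrays than the membrane arm. Its median was -0.02, 0.33, 0.28 and -0.35 on arrays 1 to 4, a mean of 0.06 ± 0.31 (SD, n = 4), against a mean of -0.05 ± 0.07 for the membrane arm. The peripheral minus membrane difference was above 0 on 3 arrays and -0.36 on array 4, a mean of 0.11 ± 0.33. By dye orientation, the median over all 42 genes was -0.05 on the arrays with NEFA in Cy3 and -0.01 on those with NEFA in Cy5, each within the SD of 0.09 over the 4 arrays. The sign differed between orientations for complex V (-0.11 in Cy3, 0.08 in Cy5) and for the peripheral arm (0.16 and -0.03). It did not for complex I, complex IV or the assembly and other genes.

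**Figure D3:**
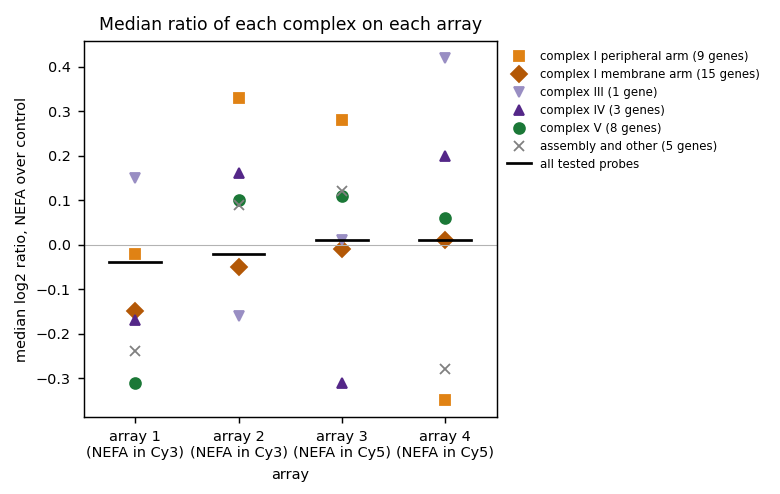
Median log2 ratio of NEFA over control of each complex on each array, with the median of all 17127 tested probes (black line). Complex V is at -0.31 on array 1 and between 0.06 and 0.11 on the others, and the peripheral arm of complex I is at 0.33 on array 2 and -0.35 on array 4.

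The assembly factors and other genes had 2 means above and 3 below 0. ATP5SL had the smallest unadjusted p of all members (0.0657 in limma), with signals of 8.74, 9.18, 8.87 and 8.38 in the NEFA pools, against 8.91, 9.38, 9.20 and 8.91 in the control pools. The NEFA pool was lower on 4 of 4 arrays, though the groups overlapped, and the limma ratio was -0.31 ± 0.14. Its 2 other tested probes gave 0.03 ± 0.16 and 0.02 ± 0.16, so the probes of this gene disagreed.

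NDUFAF1 was likewise lower on 4 of 4 arrays, at -0.21 ± 0.14, read by the dimmest probe that represents a member. NDUFAF4 stood at 0.15 ± 0.19 and NDUFAF3 at -0.02 ± 0.14. ATP5S was at 0.20, 0.30 and 0.18 on arrays 1 to 3 and at -0.57 on array 4, with a mean of 0.03 ± 0.17.

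With NDUFB7, these made 3 genes that were lower in NEFA on 4 of 4 arrays, and 0 genes were higher on 4 of 4. That is 7.1% of the 42 genes, against 7.85% of all tested probes with 1 direction on 4 of 4 arrays (3.56% higher and 4.30% lower in NEFA). All 3 were read by probes dimmer than 9.2, near the lower end of the members.

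For 12 genes several probes were tested, which gave a check of each ratio within the array. Their means had the same sign for 9 genes and opposite signs for 3, ATP5SL, NDUFA10 and NDUFA9. A shared sign of the mean did not make the probes agree on single arrays. The largest gap between probes of a gene on 1 array ran from 0.38 (NDUFB3) to 1.72 (NDUFA9). It reached 0.97 for ATP5G1, 0.93 for NDUFB5 and 0.84 for NDUFAF3, whose means shared a sign. NDUFA9 had the widest gap, 0.11 ± 0.19 for its bright probe (14.21) and -0.35 ± 0.27 for its dim probe (8.53). The dim probe read -1.67 on array 1, where the bright probe read 0.06. For NDUFB3 the 2 probes gave -0.06 each. For NDUFB8 the 3 probes gave -0.11, -0.32 and -0.05.

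**Figure D4:**
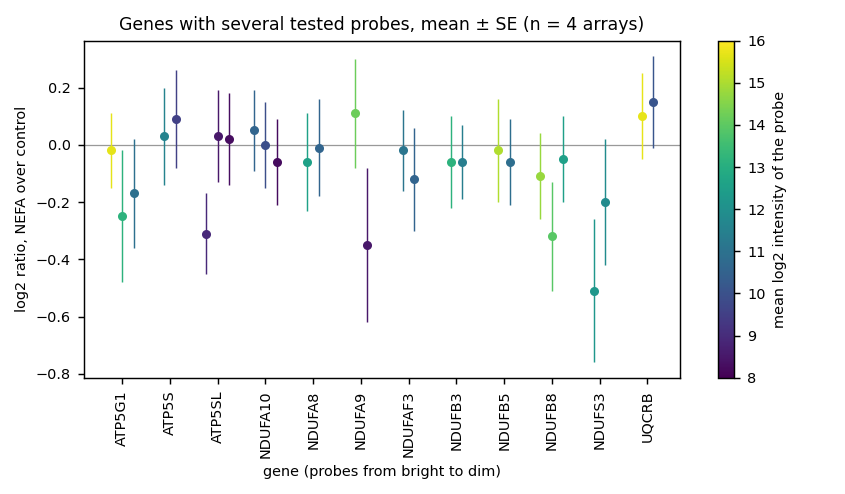
Limma mean ± SE (n = 4 arrays) of the log2 ratio of NEFA over control for each tested probe of the 12 genes with several, ordered from bright to dim and coloured by mean log2 intensity. NDUFA9 shows the widest gap between its probes, and the probes of NDUFB3 give the same mean.

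Brightness did not go with a larger spread. The 14 brightest, 14 middle and 14 dimmest genes had median SDs over the arrays of 0.38, 0.38 and 0.39. Across the 42 genes, the ratios of arrays 3 and 4 correlated at 0.45 and those of arrays 1 and 3 at -0.37, with the other pairs of arrays between -0.16 and 0.06. Genes of an array share its pools and dyes, so these are descriptions of the arrays and not of independent points.

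Other genes that serve the respiratory chain were read from the same fit. Of 40 measured genes in 7 lists, 0 passed at an adjusted p of 0.05, 19 (47.5%) had means above and 21 below 0, against 48.4% above 0 among all tested probes. An unadjusted p under 0.05 was found for 2 of them (5%), against 1.54% of all tested probes. The 2 were AIFM1, a flavoprotein listed with electron entry that supports the import of respiratory chain subunits, at -0.35 ± 0.14, and PPRC1, a coactivator of the PGC-1 family, at -0.43 ± 0.17, both named after their values were seen. AIFM1 was at 0.26 and 0.03 on arrays 1 and 2 (NEFA in Cy3) and at -0.78 and -0.90 on arrays 3 and 4 (NEFA in Cy5), and its unadjusted p in limma was 0.177 without the dye term. PPRC1 was below 0 on 4 of 4 arrays, at -0.25 without array 4, with an unadjusted p of 0.321 in limma.

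Assembly factors outside the symbol rule, COX17 and LRPPRC among them, had 6 of 8 means above 0 and a list median of 0.06. The genes of ATP export and phosphate import had 0 of 5 above 0. They include the ADP/ATP carriers SLC25A4 and SLC25A5, the phosphate carrier SLC25A3 and the outer-membrane channels VDAC1 and VDAC2. Their list median was -0.14 and was lowest on array 1, at -0.61, the array on which complex V was also lowest, and 0.01, -0.06 and -0.15 on arrays 2 to 4.

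Genes of other electron entry to ubiquinone had 1 of 4 above 0 (list median -0.13), among them ETFA and ETFDH, which pass on electrons from fatty acid oxidation. Ubiquinone synthesis had 2 of 6 above 0 (median -0.05). Mitochondrial DNA expression and its regulators, with TFAM and NRF1, had 2 of 6 above 0 (median -0.04). Protein import had 8 of 10 above 0 (median 0.06), and the uncoupling protein UCP2, the 1 measured gene of its list, stood at -0.04 ± 0.15. The median of all tested probes was -0.01 by the same fit.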

How the data were processed

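Per the file headers, the deposited values are raw scanner readings, a median foreground intensity and a local background per spot and dye. RNA was amplified and labelled by direct chemical coupling of the dyes, per the labels' protocols. Per the submitters' processing notes, limma was used, with no version or step named. The authors' deposited table holds log2 ratios, which correlated with the normalised scanner values at r = 0.906 to 0.974 as Cy5 over Cy3 on the 4 arrays, over tested probes; its column medians were -0.020 to -0.023, and its centring remains unknown.

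Spots were corrected with normexp (offset 50) and normalised by loess within arrays in limma 3.58.1 (R 4.3.3), with control and flagged spots at weight 0. Between 35 and 75 flagged probes per array were left out on that array, none of them a member. Log2 ratios were fitted with a dye intercept and a NEFA term (2 residual and 3.67 prior degrees of freedom), tested two-sided, and adjusted by Benjamini-Hochberg over 17127 probes. Per-pool signals are after Aquantile. The test was tried on simulated data. The current pig gene table held all 43 symbols. Slide and scan date are not given in the file headers, so no such block was fitted.

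Named genes were, per complex and for the pooled assembly and other genes, the 2 with the smallest unadjusted p and the 2 brightest; further members are given by value where ranges, probes or arrays turn on them. Members and lists were chosen with earlier results of these data known.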

Additional observations from a re-analysis of the deposited data

Results flagged for a closer look

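Over 49 sets of 4 array values (42 genes and 7 groups of genes), 3 had 1 array far from the others by Dixon's criterion. Chance gives about 1 in 20 such sets. The median ratio of complex V was -0.31 on array 1, against 0.06 to 0.11 on the other arrays. ATP5E, a subunit of complex V, was at -0.59 on array 1, against 0.20 to 0.33 on the others, so it is part of the same pattern. ATP5S was at -0.57 on array 4, against 0.18 to 0.30 on the others. No cause was tested.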

How the results depend on the processing

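The count of 0 member genes at an adjusted p of 0.05 was the same under every alternative run. Over all probes it was 2 with the authors' deposited log2 ratios and 0 otherwise. At an unadjusted p under 0.05, member genes numbered 1 with median centring (NDUFS3), 2 with no filter on dim probes (ATP5SL and COX6C), and 0 to 1 when 1 array was left out (NDUFA2 without array 1, NDUFS6 without array 2, NDUFS3 without array 3). The count over all probes was 865 with no filter, 103 with probes above background in all 8 channels, and 100 (without array 4) to 805 (without array 2) when 1 array was left out. The causes were not tested, beyond the number of probes that the filters leave. The membrane-arm median was -0.13 with median centring, and the other medians by complex stayed within their SD over the arrays. Member probes above background numbered 59 with the limit at the 95th percentile of negative controls and 56 at mean plus 3 SD. Aquantile leaves ratios unchanged by construction.

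Directions of single genes are read at 2 decimals. With median centring ATP5E was at -0.05, ATP5G3 at -0.01, ATP5I and ATP5S at -0.06 and NDUFA10 at -0.03. NDUFB9 was at 0.01 with no background correction and in the authors' table, where ATP5I was at -0.02. With 1 array left out, the sign was not stable for 24 genes. In complex V the ranges were -0.19 to 0.16 for ATP5A1, -0.26 to 0.02 for ATP5D, -0.16 to 0.23 for ATP5E, -0.06 to 0.01 for ATP5G1 and -0.05 to 0.09 for ATP5I. In complex IV they were -0.20 to 0.03 for COX7C and -0.24 to 0.21 for NDUFA4. In complex I they were -0.06 to 0.40 for NDUFA1, -0.04 to 0.15 for NDUFA10, -0.27 to 0.22 for NDUFA12, -0.08 to 0.53 for NDUFA2, -0.08 to 0.42 for NDUFA7, -0.24 to 0.13 for NDUFA8, -0.11 to 0.33 for NDUFA9 and -0.09 to 0.05 for NDUFAB1. They were -0.20 to 0.08 for NDUFB3, -0.22 to 0.18 for NDUFB5, -0.15 to 0.15 for NDUFB6, -0.11 to 0.10 for NDUFB9, -0.11 to 0.34 for NDUFS5 and -0.25 to 0.07 for NDUFV1. Among the other genes they were -0.16 to 0.22 for ATP5S, -0.10 to 0.06 for NDUFAF3 and -0.07 to 0.37 for NDUFAF4. Values kept off the other side of 0 but reached it for UQCRB (0.00 to 0.21), NDUFC1 (0.00 to 0.35) and NDUFB2 (-0.29 to 0.00). Other genes also moved widely on 1 side of 0, among them NDUFS3 (-0.82 to -0.19) and NDUFB1 (-0.36 to -0.02). No paired analysis was possible because the replicate numbers name arrays, beyond the pairing of a NEFA and a control pool on each array that the fitted ratios already hold.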
